A study of Drosophila melanogaster with 15 samples.

Results

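The translation initiation factor genes of Drosophila melanogaster were taken as all genes whose annotated symbol starts with eIF, and 40 of the 11982 genes measured on the arrays met this rule. RefSeq's gene table lists 44 such genes; eIF1A, eIF2alpha, eIF2gamma and eIF4H1 were not covered by a probe set carrying their symbol alone and were not analysed here. RNA came from wing imaginal discs, the larval epithelia that give rise to the wing and notum, of larvae in the third instar kept at 25 C, and was hybridised to 15 Affymetrix arrays in 5 groups of 3. Control larvae were w-; elav-GAL80/+; Rn-GAL4/+ and were taken at ages of 92 and 116 h, counted from egg deposition. Knockdown larvae carried the same elements and, in addition, UAS Avl RNAi on the Rn-GAL4 chromosome, and were taken at 92, 116 and 168 h. Both genotypes were in the w1118 background, and the labels call control discs wild type and knockdown (avl-RNAi) discs neoplastic at every age. avl, now named Syx7, encodes a syntaxin of early endosomes. Rn-GAL4 is active in the rotund domain, so the construct acts in a portion of the disc while RNA was taken from the whole disc. The control carried no UAS construct, and the knockdown could not be checked because Syx7 had no named probe set. The series describes 3 separate samples per time point, without saying whether each was a pool of larvae, so p-values measure the spread between these samples.

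Translation of most mRNAs begins when the cap-binding complex eIF4F, made of eIF4E, eIF4G and the helicase eIF4A, recruits a small ribosomal subunit that carries eIF3, eIF1, eIF1A, eIF5 and the initiator tRNA held by eIF2 with GTP. The complex scans to a start codon, eIF5 stimulates GTP hydrolysis by eIF2, and eIF5B joins the large subunit, which eIF6 otherwise holds apart. eIF2B reloads eIF2 with GTP, the step that eIF2alpha kinases restrain during stress, while TOR signalling acts on the cap-binding step, and both are known controls of growth in the wing disc.

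Values are on a log2 scale, and a gene was called, and is said to have risen or fallen, at an adjusted p under 0.05 in limma's moderated test over all 15 arrays, with Benjamini-Hochberg adjustment over the 11982 genes. Where the genotypes are compared at the same age, risen or fallen means higher or lower than in control discs, not a change with age. Initiation factor transcripts gave strong signals: 31 of the 40 members lay above the array's median gene (5.76 to 6.0) on all 15 arrays, between 8.03 and 13.73. The other 9 members did not, namely eIF4H2 and 8 paralogues (eIF3d2, eIF3f2, eIF3g2, eIF4E3, eIF4E4, eIF4E5, eIF4E6 and eIF4E7), several of which are known mainly from the germline. For those 9, a value near the floor of the array says little about the transcript. The mean over all members differed little between groups. It was 9.53 ± 0.01 and 9.49 ± 0.02 (SD, n = 3) in the younger and older control discs, and 9.56, 9.54 and 9.55 (SD 0.01, 0.03 and 0.01) in knockdown discs from youngest to oldest. The plot of every member on every array shows the changes described in turn.

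**Figure D1:**
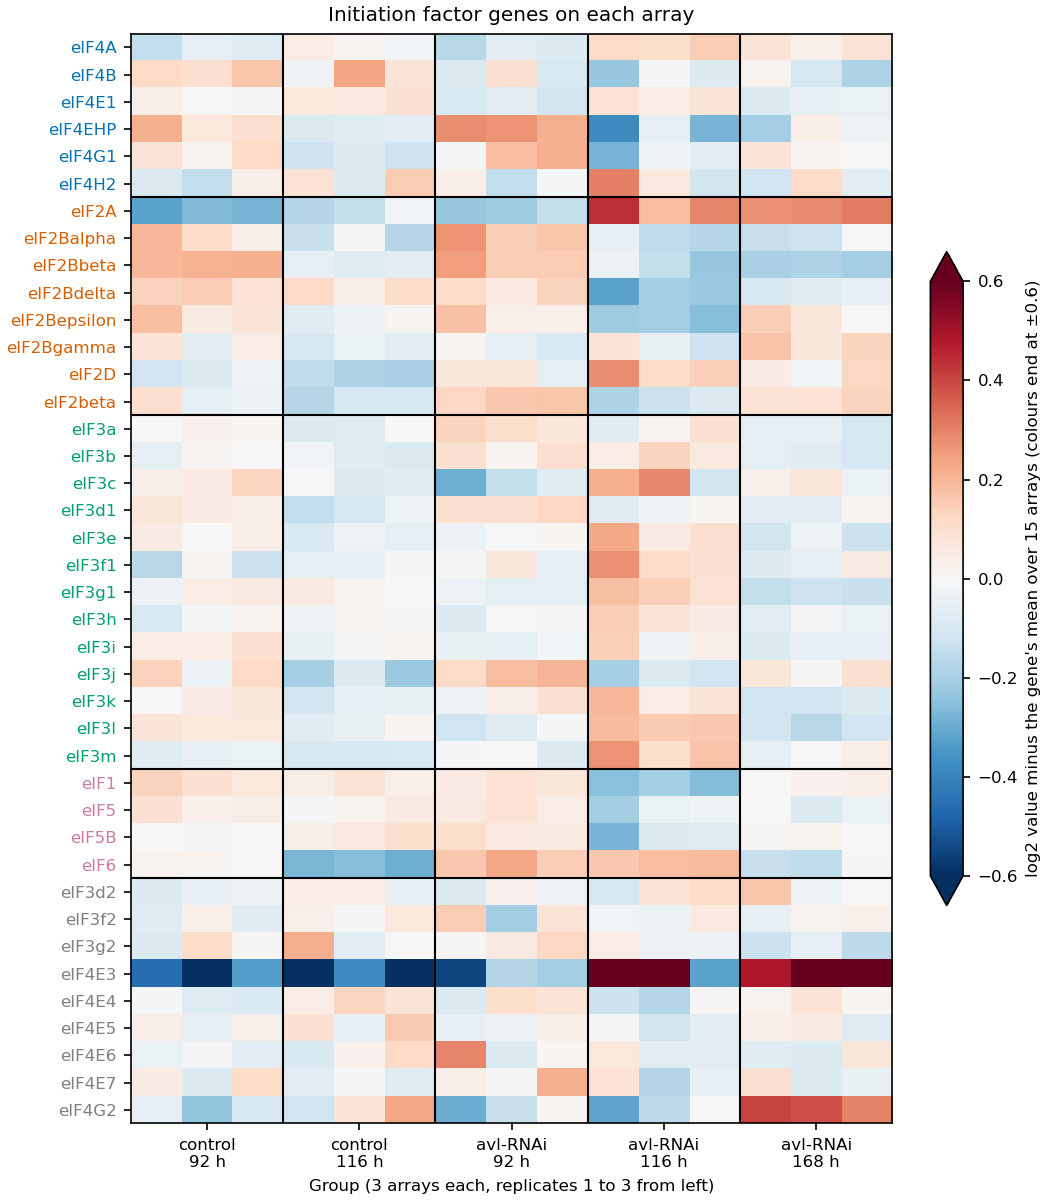
Heat map of the 40 initiation factor genes (rows, coloured by role as eIF4, eIF2 and eIF2B, eIF3, scanning and joining factors, and paralogues, from top to bottom) on the 15 arrays (columns, 3 per group); the colour gives the log2 value minus that gene's mean, and colours end at ±0.6. The eIF3 rows are mostly red in avl-RNAi discs at 116 h and the rows of eIF1 and eIF2Bdelta blue, while eIF6 is blue in control discs at 116 h.

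Transcripts of other larval tissues differed between arrays and moved with several of the comparisons. For 11 muscle genes the mean at 92 h was 7.88 to 8.28 on control arrays and 8.59 to 9.11 on avl-RNAi arrays. At 116 h it was 6.28 to 7.03 on control and 7.29 to 7.88 on avl-RNAi arrays, and at 168 h it was 5.51 to 5.82. At 116 h 8 of the 11 were called higher than in control discs, against 12.6% of all genes. For 20 gut genes the control arrays spread widely, over 4.98 to 6.60 at 92 h, where replicate 3 was low, and over 4.81 to 6.43 at 116 h, where replicate 2 was high. The avl-RNAi arrays held 5.88 to 6.73 at the first age, 5.10 to 5.25 at the next and 4.63 to 4.74 at the last. Of 8 measured wing disc markers, 5 were called lower in avl-RNAi than in control discs at 116 h, against 19.1% of all genes. From 92 to 116 h 3 were called higher in control discs (13.2% of all genes) and 1 lower in avl-RNAi discs (20.6%). From 116 to 168 h 5 were called higher (15.5%) and 1 lower (11.5%) in avl-RNAi discs. The markers ptc and rn gave weak signals in some groups. Tissue means (gut, muscle and fat body) were therefore also entered as covariates. The fat body mean rested on 3 genes, whose differences at 116 h ran from -2.36 to 1.35. It spread over 8.88 to 11.27 on control arrays of that age. The covariates raised the median standard error of the members from 0.06 to 0.10 in the 116 h comparison. It became 0.13 for control discs from 92 to 116 h and 0.17 for avl-RNAi discs from 116 to 168 h. In whole discs, fewer cells of a type and less RNA per cell cannot be told apart.

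At 92 h none of the 40 initiation factor genes was called different between avl-RNAi and control discs, against 4.48% of all genes (2.44% higher and 2.04% lower) and 6.94% of genes above the median level. With limma's unadjusted p under 0.05 there were 6, namely eIF6, eIF2beta, eIF3c, eIF3i, eIF3l and eIF4E1. The share of all genes at that unadjusted threshold was not taken, here or below, so such counts have no background to be set against. The member differences ran from -0.24 (eIF3c) to 0.17 (eIF6), with a median of 0.03 against -0.01 over all genes. Other settings of limma called 0 to 3 members. The arrays of the 2 genotypes did not overlap for 7 members that were higher (11.3% of all genes) and 5 that were lower (12.6% of all genes). In the list of 16 measured regulators and partners of initiation, 2 genes had fallen by 92 h. These were Gcn2, a kinase of eIF2alpha, at -0.30 ± 0.05 (SE, limma adjusted p = 0.0032), and MCTS1, a partner of DENR in reinitiation, at -0.33 ± 0.06 (limma adjusted p = 0.0038).

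At 116 h avl-RNAi discs differed from control discs in 15 of the 40 members, or 37.5%, with 10 higher and 5 lower. Over all genes the share called was 31.7%, with 12.6% higher and 19.1% lower, and among genes above the median level, where most members lie, it was 52.1%, with 19.2% higher and 32.9% lower. Of the 31 members above the median level 13 were called, or 41.9%. The median difference was 0.02, against -0.02 over all genes. Changes were small: eIF4E3 alone, with control values near the floor, was called with a change of 2-fold or more. The other called members lay between -0.34 and 0.45. The split depended on scaling, with 14 higher and 5 lower after quantile normalization. It was 5 higher and 10 lower after centring each array on its median gene, which shifted this comparison by -0.09. At 116 h that median over the analysed genes was 5.925 to 5.999 on avl-RNAi and 5.835 to 5.920 on control arrays. Medians over all probe sets lay closer together, at 4.76 to 4.79 and 4.74 to 4.78. The shift thus depends on which probe sets enter the median. With the 3 tissue means as covariates only eIF6 and eIF2A were called. The arrays of the genotypes did not overlap for 13 members that were higher (16.7% of all genes) and 6 that were lower (23.8% of all genes).

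**Figure D2:**
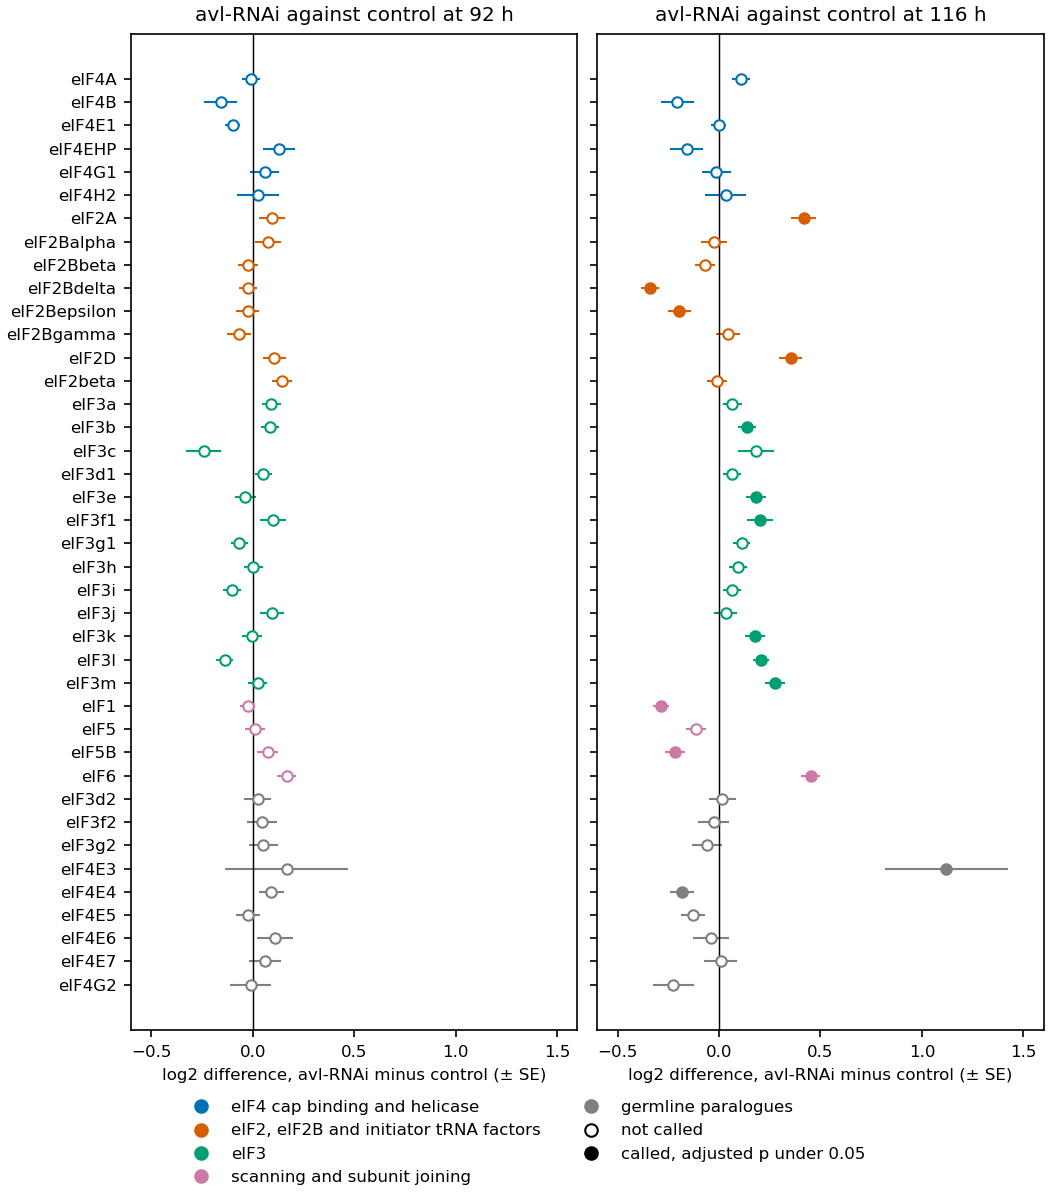
Difference between avl-RNAi and control discs (log2, points, with the SE as bars; 3 arrays per group) for each member at 92 h (left) and 116 h (right), coloured by role; filled points were called. All points are open at 92 h, and at 116 h eIF6 and eIF2A lie furthest right among the strongly expressed members and eIF2Bdelta furthest left.

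Among the factors of scanning and subunit joining, eIF6 was higher and eIF1 and eIF5B were lower in avl-RNAi than in control discs at 116 h. These were 3 of 4 measured genes, beside 31.7% of all genes called and 58.2% of the top 10% by level, where all 4 lie. eIF6 (NCBI gene 37776), which binds the large subunit and keeps it from joining too early, read 10.41, 10.43 and 10.39 on the 3 control arrays and 10.84, 10.87 and 10.87 on the avl-RNAi arrays at 116 h. Every avl-RNAi array lay above every control array, and the difference was 0.45 ± 0.05 (SE, 1.37-fold, limma adjusted p = 5.74e-06). This call held in every alternative run, with differences of 0.36 to 0.53. At 92 h eIF6 read 10.70, 10.70 and 10.69 in control discs and 10.84, 10.92 and 10.83 in avl-RNAi discs. Thus eIF6 fell in control discs from 92 to 116 h, by 0.29 ± 0.05 (limma adjusted p = 0.000402), while in avl-RNAi discs the difference between these ages was -0.0016 (SE 0.05). The change of the genotype difference between the ages was 0.29 ± 0.07 (limma adjusted p = 0.00832). At 168 h avl-RNAi discs read 10.55, 10.53 and 10.69 for eIF6, lower than at 116 h by 0.27 ± 0.05 (limma adjusted p = 0.000683). With tissue covariates neither this fall nor that in control discs from 92 to 116 h was called.

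eIF1 (NCBI gene 38398), which guards the choice of start codon, moved the other way at 116 h. It read 12.62, 12.58 and 12.55 in control discs at 92 h, 12.52, 12.57 and 12.52 in control discs at 116 h, and 12.54, 12.57 and 12.56 in avl-RNAi discs at 92 h. These 9 arrays overlapped closely. In avl-RNAi discs at 116 h eIF1 read 12.23, 12.28 and 12.23, below all of them, and at 168 h it was back at 12.49, 12.51 and 12.53. The difference from control at 116 h was -0.29 ± 0.04 (limma adjusted p = 6.06e-05), and the later rise from 116 to 168 h was 0.26 ± 0.04 (limma adjusted p = 0.00021). eIF5B, the GTPase that joins the subunits, fell at 116 h by 0.22 ± 0.05 (limma adjusted p = 0.0052) and rose again by 0.16 at 168 h, a rise that was not called after quantile normalization or median centring. eIF5, which stimulates GTP hydrolysis by eIF2, differed by -0.11 ± 0.05 at 116 h and was not called. With tissue covariates the calls of eIF1 and eIF5B at 116 h were lost, as were those of their rises from 116 to 168 h. In that fit eIF5B turned to -0.05 from 116 to 168 h, within the members' median standard error of 0.17.

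**Figure D3:**
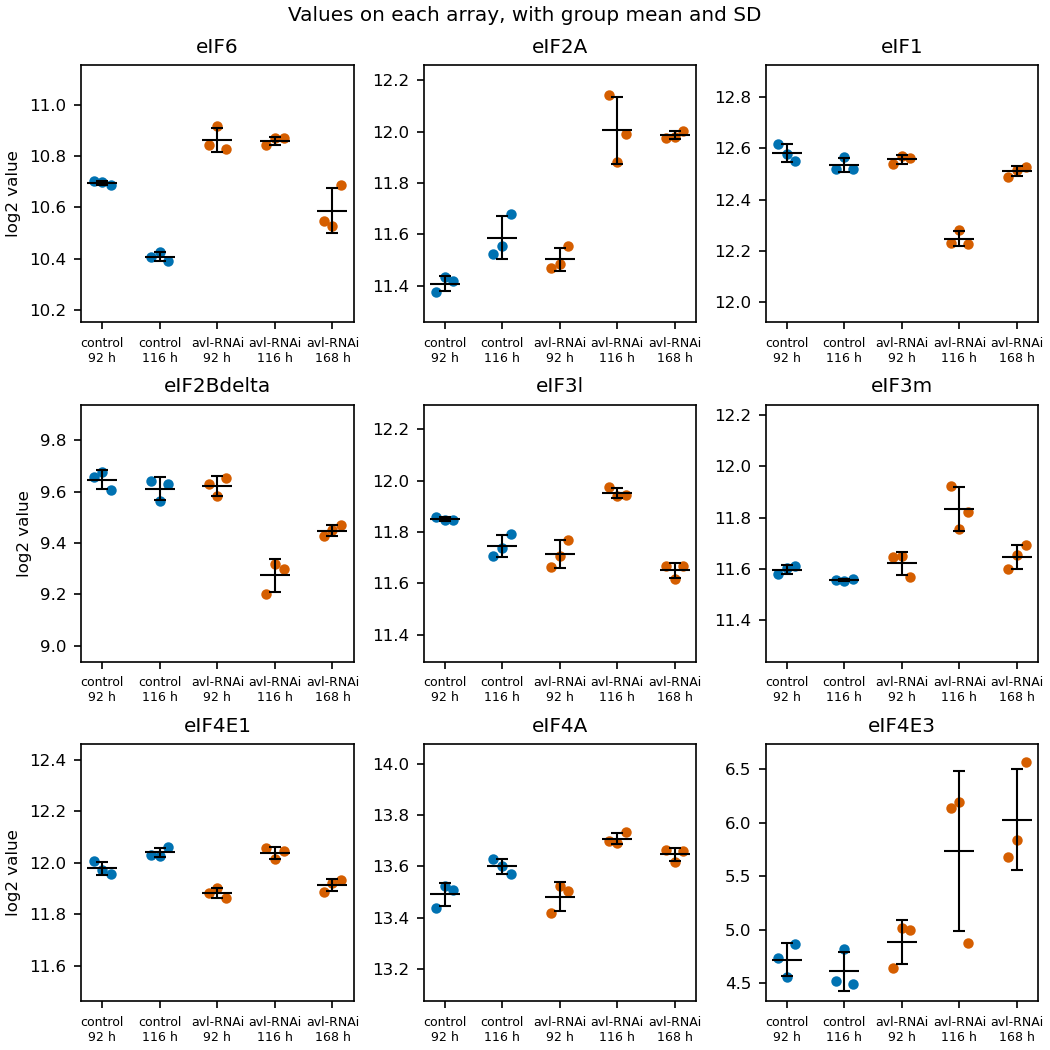
Log2 value on each array (points; blue control, orange avl-RNAi) with the group mean and SD (n = 3) for 9 members; axes span 1 log2 unit, except for eIF4E3, which spans more. The eIF6 panel shows the lowest points in control discs at 116 h, the eIF1 and eIF2Bdelta panels the lowest points in avl-RNAi discs at 116 h, and the eIF4E3 panel 1 of 3 avl-RNAi arrays at 116 h beside the controls.

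Among the 8 measured genes of eIF2, its exchange factor eIF2B and the alternative initiator tRNA factors, 2 rose and 2 fell at 116 h. That share of 50% called stands beside 31.7% of all genes and is near the 52.1% of genes above the median level, where all 8 lie. Both genes that rose encode factors known in mammals and yeast to deliver or handle initiator tRNA apart from eIF2. eIF2A (NCBI gene 40431), which is a different gene from eIF2alpha, read 11.52, 11.56 and 11.68 in control discs at 116 h, and 12.14, 11.88 and 11.99 with the knockdown. The groups did not overlap, and the difference was 0.42 ± 0.06 (limma adjusted p = 0.000153), called in every alternative run with 0.33 to 0.48. At 92 h the values were 11.38, 11.43 and 11.42 against 11.47, 11.49 and 11.56. At 168 h avl-RNAi discs stayed at 11.974, 11.981 and 12.004, above control discs at 116 h by 0.40 ± 0.06 (limma adjusted p = 0.000314). eIF2D (NCBI gene 64874), a factor of reinitiation and ribosome recycling, read 8.07, 8.04 and 8.03 in control discs and 8.51, 8.34 and 8.37 in avl-RNAi discs at 116 h, with no overlap. The difference of eIF2D was 0.35 ± 0.06 (limma adjusted p = 0.000299), and at 92 h the arrays read 8.10, 8.14 and 8.20 in control discs and 8.29, 8.30 and 8.17 in avl-RNAi discs.

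The 2 members of this group that fell at 116 h were subunits of eIF2B. eIF2Bdelta (NCBI gene 37706), a regulatory subunit, read 9.64, 9.56 and 9.63 in control discs and 9.20, 9.32 and 9.30 in avl-RNAi discs at 116 h, again with no overlap. Its difference was -0.34 ± 0.05 (limma adjusted p = 5.9e-05). At 92 h the genotypes overlapped, with eIF2Bdelta at 9.66, 9.68 and 9.61 in control and 9.63, 9.58 and 9.65 in avl-RNAi discs, and at 168 h the avl-RNAi values were 9.43, 9.45 and 9.47. The catalytic subunit eIF2Bepsilon fell by 0.20 ± 0.06 at 116 h (limma adjusted p = 0.0162), a call lost without avl-RNAi 116 h replicate 3 or without control 116 h replicate 3. The differences of eIF2Balpha, eIF2Bbeta and eIF2Bgamma at 116 h were -0.03, -0.07 and 0.04 and were not called. eIF2Balpha and eIF2Bbeta instead fell with age in both genotypes. In control discs from 92 to 116 h they fell by 0.22 ± 0.06 and 0.27 ± 0.05 (limma adjusted p = 0.0223 and 0.000952), and in avl-RNAi discs both fell by 0.32. The control call of eIF2Balpha was lost without replicate 1 or 2 of the younger or replicate 1 or 3 of the older control group. In avl-RNAi discs eIF2Bdelta, eIF2Bepsilon and eIF2beta, a subunit of eIF2 itself, also fell over these ages, by 0.35, 0.30 and 0.28. Between 116 and 168 h these 3 genes rose again, by 0.17, 0.30 and 0.23, but the call of eIF2Bdelta over this interval was lost after quantile normalization and its difference was -0.0019 with tissue covariates.

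eIF3, the scaffold that holds the other factors on the small subunit, was measured through 13 subunit genes. At 116 h 6 of them were called higher in avl-RNAi than in control discs (eIF3b, eIF3e, eIF3f1, eIF3k, eIF3l and eIF3m) and none lower. Of all genes 12.6% were called higher and 19.1% lower. Among the top 10% of genes by level, where all 13 lie, 17.9% were called higher and 40.3% lower. All 13 differences were above 0, from 0.03 (eIF3j) to 0.28 (eIF3m), with a median of 0.14. This count was set by scaling and by single arrays: it was 10 after quantile normalization, 1 after median centring (9 of 13 above 0), 0 with tissue covariates (11 of 13 above 0), 2 with the compared groups alone, and 3 without avl-RNAi 116 h replicate 1. eIF3m (NCBI gene 36565) kept its call under both other scalings. It read 11.56, 11.56 and 11.56 in control discs and 11.92, 11.76 and 11.82 in avl-RNAi discs at 116 h, a difference of 0.28 ± 0.05 (limma adjusted p = 0.000551). The groups did not overlap. eIF3l (NCBI gene 39386) read 11.71, 11.74 and 11.79 in control discs and 11.97, 11.94 and 11.95 in avl-RNAi discs, a difference of 0.21 ± 0.04 (limma adjusted p = 0.00163). In mammals both proteins belong to the core of the complex. From 92 to 116 h the 13 genes had a median difference of -0.07 in control discs, with 10 below 0 and 2 called lower (13.8% of all genes). In avl-RNAi discs the median over these ages was 0.12, with 4 called higher and 2 lower (14.8% and 20.6% of all genes). Of the 6 genes above control at 116 h, only eIF3l and eIF3m were called over these ages in avl-RNAi discs.

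The course of eIF3l differed between genotypes. At 92 h it read 11.86, 11.85 and 11.85 in control discs and 11.66, 11.71 and 11.77 in avl-RNAi discs, so the avl-RNAi arrays were the lower ones, though the difference of -0.14 ± 0.04 was not called (limma adjusted p = 0.0868). The change of the genotype difference from 92 to 116 h was 0.35 ± 0.06 (limma adjusted p = 0.00109) and was called in every alternative run. At 168 h avl-RNAi discs read 11.67, 11.62 and 11.67 for eIF3l, lower than at 116 h by 0.30 ± 0.04 (limma adjusted p = 0.000129). From 116 to 168 h 8 of the 13 eIF3 genes fell (eIF3b, eIF3e, eIF3f1, eIF3g1, eIF3h, eIF3k, eIF3l and eIF3m), with a median difference of -0.16, and eIF3j rose by 0.19. Of all genes 11.5% were called lower over this interval, and of the top 10% by level 16.6%. With tissue covariates the direction of eIF3h turned, to 0.06, within the members' median standard error of 0.17 in that fit. That count of 8 was 5 after median centring, 5 without avl-RNAi 116 h replicate 1 or avl-RNAi 168 h replicate 1, 3 with the compared groups alone and 0 with tissue covariates. Over the same interval the muscle mean went from 7.29 to 7.88 down to 5.51 to 5.82 in avl-RNAi discs, and beyond the fit with covariates its part in the eIF3 values was not tested. eIF3j, a loosely bound subunit, fell with age in control discs by 0.24 ± 0.06 (limma adjusted p = 0.00668) and in avl-RNAi discs by 0.30. eIF3d1, the subunit known in mammals to bind caps of some mRNAs, fell by 0.15 and 0.14 in the same comparisons, calls that were lost after quantile normalization. Across the 15 arrays the 78 pairs of eIF3 genes had a median Pearson r of 0.41 (from -0.61 to 0.88) and a median Spearman rho of 0.34; these values share the arrays, their scaling and the group differences.

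**Figure D4:**
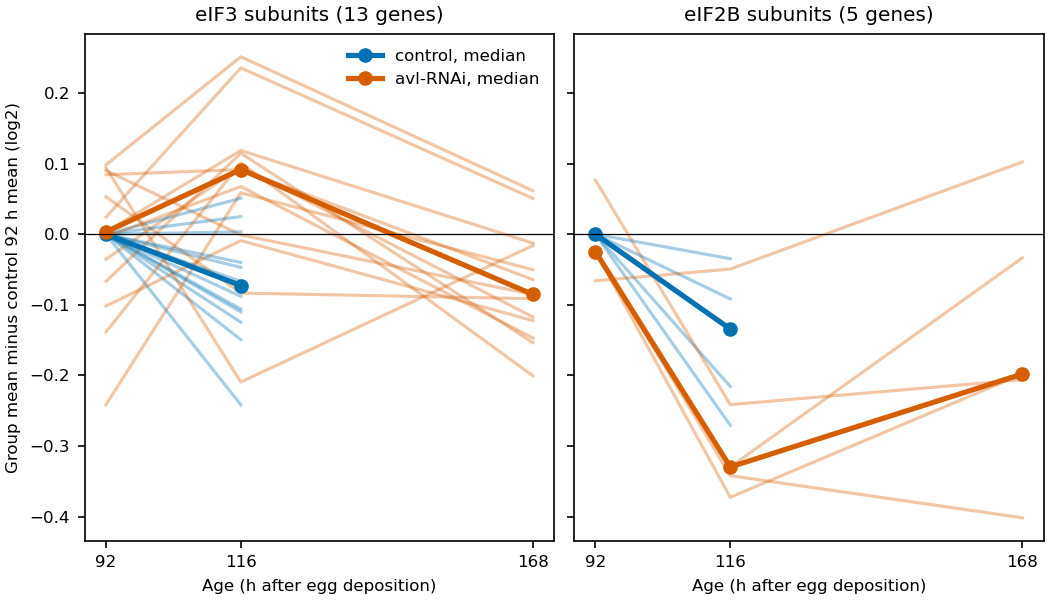
Group means of 13 eIF3 genes (left) and 5 eIF2B genes (right) minus the gene's mean in control discs at 92 h (log2), against age in hours after egg deposition; thin lines are genes, thick lines their medians, blue control and orange avl-RNAi. The eIF3 median of avl-RNAi discs peaks at 116 h and the eIF2B median is lowest there.

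The cap-binding and helicase factors showed no call at 116 h in any of 6 genes in limma, although 2 had an unadjusted p under 0.05. Of all genes 31.7% were called, and of genes above the median level 52.1%. One of the 6, eIF4H2, lay near the floor of the array. The listed helicase factor eIF4AIII, annotated as CG7483 and so not a member, did differ in level at 116 h. It read 11.22 to 11.28 on control and 10.80 to 10.93 on avl-RNAi arrays. eIF4E1 (NCBI gene 45525), the main cap-binding protein, read 12.03, 12.03 and 12.06 in control discs at 116 h, and 12.06, 12.01 and 12.05 with the knockdown. The groups overlapped, and the difference was -0.0013 (SE 0.04). At 92 h eIF4E1 read 12.01, 11.97 and 11.96 in control and 11.88, 11.90 and 11.86 in avl-RNAi discs, with no overlap but no call (limma adjusted p = 0.184). eIF4A (NCBI gene 33835), the helicase, read 13.63, 13.60 and 13.57 in control discs at 116 h, and 13.70, 13.69 and 13.73 with the knockdown. The difference of 0.11 ± 0.04 was not called (limma adjusted p = 0.0772). At 92 h eIF4A read 13.44, 13.53 and 13.51 in control and 13.42, 13.52 and 13.51 in avl-RNAi discs. eIF4G1 (NCBI gene 43839), the scaffold, read 11.59, 11.64 and 11.59 in control and 11.44, 11.69 and 11.65 in avl-RNAi discs at 116 h, a difference of -0.01 ± 0.07.

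With age, however, avl-RNAi discs changed in 4 of these 6 genes from 92 to 116 h: eIF4A rose by 0.23 ± 0.04 and eIF4E1 by 0.16 ± 0.04, while eIF4EHP fell by 0.49 ± 0.08 (limma adjusted p = 0.00091, 0.00396 and 0.000278) and eIF4G1 by 0.25. The 4 of 6 stand beside 35.4% of all genes called, 58% of genes above the median level and 68.5% of the top 10% by level, where eIF4A, eIF4E1 and eIF4G1 lie, so the count is near the background. The call of eIF4E1 was lost after median centring and that of eIF4G1 after quantile normalization, without avl-RNAi 92 h replicate 3 and without avl-RNAi 116 h replicate 1. In control discs the differences of eIF4A, eIF4E1, eIF4EHP and eIF4G1 over the same ages were 0.11, 0.06, -0.20 and -0.18 and were not called. Whether the genotypes aged differently is the change of the genotype difference, which limma called for none of the 6 genes (1 at an unadjusted p under 0.05). eIF4EHP, which binds caps without recruiting eIF4G and so represses translation, has a second, weaker probe set with a difference of 0.10 where the one used gave -0.49, so its direction depends on the probe set. eIF4B, a helicase cofactor, has 4 probe sets, whose differences at 116 h ran from -0.48 to -0.01. The other 38 members had a single probe set.

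The paralogues gave the one called change of 2-fold or more, but from control values near the floor of the array, so its size was not measured. eIF4E3 (NCBI gene 38923), an eIF4E paralogue known from the fly testis, read 4.74, 4.56 and 4.87 in control discs at 92 h and 4.52, 4.82 and 4.50 in control discs at 116 h, below the median gene. The avl-RNAi arrays gave 4.65, 5.02 and 4.99 at the first age. They gave 6.14, 6.19 and 4.87 at 116 h, then 5.68, 5.84 and 6.57 at 168 h. These array values were chosen for printing after they were seen. At 116 h 2 of 3 avl-RNAi arrays lay well above the controls and the other close to them; the difference was 1.12 ± 0.30 (limma adjusted p = 0.011), and the call was lost without replicate 1 (0.92, adjusted p = 0.0561) or replicate 2 (0.89, adjusted p = 0.051) of that group. At 168 h all 3 lay above the control arrays of 116 h, by 1.42 ± 0.30 on average (limma adjusted p = 0.00317), a call lost only with tissue covariates among the alternatives run. Among markers of the germline, 0 of 11 genes were called at 116 h in limma (1 at an unadjusted p under 0.05) and 1 at 168 h against control. The shares of all genes were 31.7% and 25.6%. At 92 h 1 was called higher (2.44% of all genes), and the change of the difference was called lower for 1 (10.5%). From 92 to 116 h 2 were called lower in control discs (13.8%) and 2 in avl-RNAi discs (20.6%). The mean of the 11 lay between 4.57 and 4.78 on every array. eIF4G2, a paralogue of eIF4G1 needed in the fly male germline but strongly detected here, rose from 116 to 168 h by 0.52 ± 0.10 (limma adjusted p = 0.0018). eIF4E4 fell at 116 h by 0.18 ± 0.06 (limma adjusted p = 0.0333), with values of 4.84 or less on every array, and this call was lost without avl-RNAi replicate 1 or 2 or control replicate 2 or 3 of that age.

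The 2 genotypes were then compared in how their difference changed from 92 to 116 h. This change was called for 11 of the 40 members, 7 higher and 4 lower, against 18.2% of all genes (7.62% higher and 10.5% lower) and 29.8% of genes above the median level. eIF3c, eIF3e, eIF3l, eIF3m, eIF6, eIF2A and eIF2D were the 7 whose difference moved up, and eIF1, eIF5B, eIF2Bdelta and eIF4E4 the 4 whose difference moved down. The calls of eIF1, eIF2Bdelta, eIF3l and eIF6 held in every alternative run, and those of eIF2D, eIF3e and eIF4E4 were lost in most. The count was 4 without the 2 control arrays that stood apart in gut transcripts, and 6 without control 116 h replicate 2. It was 7 without avl-RNAi 116 h replicate 1, and also without control 92 h replicate 2 or 3 or control 116 h replicate 1 or 3.

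In control discs from 92 to 116 h, the normal maturation of the disc, 6 of 40 members were called, 1 higher (eIF2A) and 5 lower (eIF6, eIF2Bbeta, eIF3j, eIF3d1 and eIF2Balpha), against 27% of all genes (13.2% higher and 13.8% lower) and 44.3% of genes above the median level. The share of members called, 15%, was below both. The median member difference was -0.05. The split was 0 higher and 10 lower after median centring and 2 higher and 4 lower after quantile normalization, no member was called with tissue covariates, and 3 were called without control 92 h replicate 1 or 2. The call of eIF2A was lost in 12 of 18 alternatives. Arrays did not overlap for 16 members that were lower at 116 h (22.7% of all genes) and 5 that were higher (20% of all genes).

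In avl-RNAi discs over the same ages 20 of 40 members were called, 8 higher and 12 lower, against 35.4% of all genes (14.8% higher and 20.6% lower) and 58% of genes above the median level. eIF2A rose by 0.50 ± 0.06 (limma adjusted p = 2.93e-05), and eIF1 fell by 0.31 ± 0.04 (limma adjusted p = 2.99e-05). The split was 13 higher and 9 lower after quantile normalization and 4 higher and 12 lower after median centring, and 5 members were called with tissue covariates. Arrays did not overlap for 10 members that were higher at 116 h (18.4% of all genes) and 12 that were lower (23.9% of all genes). From 116 to 168 h 17 of 40 were called, 7 higher and 10 lower, against 27% of all genes (15.5% higher and 11.5% lower) and 42.7% of genes above the median level. None of these 17 was called with tissue covariates, where the median standard error of the members was 0.17 against 0.06 in the main fit. Without avl-RNAi 168 h replicate 1, 11 members were called. The split over this interval was 5 higher and 10 lower after quantile normalization and 6 higher and 6 lower after median centring. Arrays did not overlap for 9 members that were higher at 168 h (20.7% of all genes) and 13 that were lower (18.6% of all genes).

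Compared with the oldest control discs (116 h), avl-RNAi discs at 168 h differed in 11 of 40 members, 8 higher and 3 lower, against 25.6% of all genes (12% higher and 13.7% lower) and 41.9% of genes above the median level. The ages differ in this comparison, so age and genotype cannot be told apart. eIF2A, eIF4E3, eIF2beta, eIF2D, eIF3j, eIF6, eIF2Bgamma and eIF4G2 were higher, and eIF3g1, eIF2Bdelta and eIF4E1 were lower. eIF2beta was higher by 0.23 ± 0.05 (limma adjusted p = 0.00378), eIF3g1, an RNA-binding subunit of eIF3, lower by 0.16 ± 0.04 (limma adjusted p = 0.0121), and eIF4E1 lower by 0.13 ± 0.04 (limma adjusted p = 0.0217). The split was 9 higher and 2 lower after quantile normalization and 2 higher and 7 lower after median centring. The calls of eIF2D, eIF2beta, eIF2Bgamma, eIF3j, eIF6 and eIF4G2 were lost after median centring and those of eIF4E1 and eIF4G2 after quantile normalization, and with tissue covariates 1 member, eIF2A, was called. The count was 7 without avl-RNAi 168 h replicate 1. Arrays did not overlap for 10 higher members (18.1% of all genes) and 7 lower ones (23.2% of all genes). Comparisons that share a group share its arrays, so their values are set side by side and not counted as separate evidence.

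The wider translation genes were read from a list of 20 regulators and partners of initiation, of which 16 were measured. At 116 h 7 of the 16 were called higher in avl-RNAi than in control discs and 4 lower. That is 68.8% called, against 31.7% of all genes and 52.1% of genes above the median level (19.2% higher and 32.9% lower). S6k, the ribosomal protein S6 kinase downstream of TOR, rose by 0.77 ± 0.05 (limma adjusted p = 3.94e-08). The S6k level was 9.65 ± 0.03 (SD, n = 3) in control discs and 10.42 ± 0.07 with the knockdown. Paip2, an inhibitor of the poly(A)-binding protein, rose by 0.63 ± 0.08, and Lk6, the kinase of eIF4E, by 0.40 ± 0.05 (limma adjusted p = 3.84e-05 and 6.67e-05). DENR, which acts with MCTS1 in reinitiation, fell by 0.41 ± 0.05 (limma adjusted p = 1.21e-05). The DENR level at 116 h was 10.05 ± 0.02 in control discs and 9.63 ± 0.07 with the knockdown, and eIF2D, whose function overlaps with theirs in mammals, moved the other way. crc, PEK, Pdcd4 and PPP1R15 also rose, and NAT1, MCTS1 and 4E-T fell. The median of the 16 genes was 0.19, against -0.02 over all genes. Alternative settings are reported for the members alone, so how far calls in this list and in the elongation and termination list depend on them is not given.

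**Figure D5:**
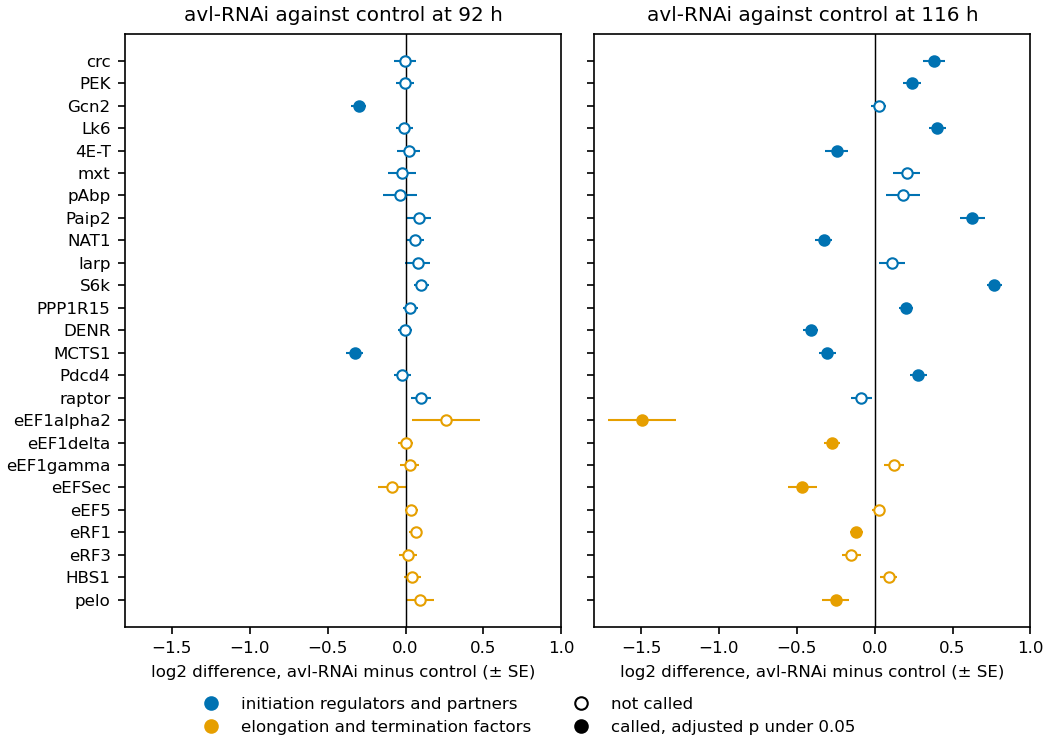
Difference between avl-RNAi and control discs (log2, points, with the SE as bars; 3 arrays per group) at 92 h (left) and 116 h (right) for 16 regulators and partners of initiation (blue) and 9 elongation and termination factors (orange); filled points were called. Gcn2 and MCTS1 are the filled points at 92 h, and S6k and eEF1alpha2 lie furthest from 0 at 116 h.

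Of 12 elongation and termination factors 9 were measured, and at 116 h 5 were called lower in avl-RNAi than in control discs and none higher. That share of 55.6% is near the 52.1% called among genes above the median level and the 58.2% among the top 10% by level, of which 40.3% were called lower. eEF1alpha2, an alternative form of the factor that brings aminoacyl-tRNA to the ribosome, was lower than in control discs of that age by 1.49 ± 0.22 (limma adjusted p = 0.00012). Its level in control discs was 4.24 ± 0.06 (SD, n = 3) at 92 h and 8.58 ± 0.53 at 116 h. In knockdown discs it was 4.50 ± 0.06, 7.08 ± 0.39 and, at 168 h, 9.85 ± 0.13. Both groups at 92 h lay near the floor of the array, so the size of the rise from 92 to 116 h, called in both genotypes (limma adjusted p = 1.19e-08 in control and 1.1e-06 in avl-RNAi discs), was not measured and is not compared between them. eEF1delta, a subunit of the exchange factor of eEF1alpha, was lower than control by 0.27 ± 0.05 and eEFSec, the selenocysteine elongation factor, by 0.46 ± 0.09 at 116 h (limma adjusted p = 0.000764 and 0.00134).

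Likeness between members over the 15 arrays is given as a description, with no test, because all pairs share the arrays, their scaling and the group differences. eIF1 and eIF2Bdelta had a Pearson r of 0.90 and eIF2D and eIF3m also 0.90, whereas eIF2A and eIF2Bdelta had -0.89. The genes outside the set whose values were most like the mean of the members were Ptp10D (r = 0.88), O-fut2 (0.87), Vps39, PolG1 and CG34008 (0.86 each). That mean was nearly flat, at 9.47 to 9.57 over the 15 arrays. It included the members near the floor, among them eIF4E3, whose range of 2.08 was the widest of any member. These correlations therefore say little about the strongly expressed members.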

How the data were processed

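Total RNA was labelled with biotin and hybridised to 1-colour Affymetrix arrays, per the labels' protocols. The values used are the deposited ones, on a log2 scale and scaled between arrays by the authors, for 18952 probe sets; the log base was inferred from the values, the method was not given in the sources used here, and Partek and limma are named without a role or version, per the submitters' processing notes. Every array had a mean of 6.01. Arrays give no read depth, so their number limits the precision.

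In the platform annotation 13647 probe sets had a single symbol, while 402 had several and 4903 lacked one; names were updated through RefSeq's gene table. A gene was read from its probe set with the highest mean over all arrays, which gave 11982 genes, and 2 probe sets shared by eIF4E7 and CG17010 were not used. limma 3.58.1 in R 4.3.3 (lmFit, eBayes) fitted 5 group means on all 15 arrays with 10 residual degrees of freedom, in 7 comparisons, with 2-sided tests and Benjamini-Hochberg adjustment over all genes. The script was tested on simulated data.

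Groups came from the labels. The replicate numbers were not used as pairs. After each gene's group mean was taken off, same-numbered arrays of different groups correlated at -0.41 to 0.50 over 30 pairs, with 9 above 0.1. Arrays with different numbers were not compared in this way, so these values cannot decide whether the numbers mark pairs. Alternatives changed the scaling (quantile normalization or median centring), the genes (dropping the lowest 25% or 50% by level, or averaging probe sets), the fit (compared groups alone, a replicate block, array weights, or a prior with trend and robust settings) and the threshold (0.01). Others used gut, muscle and fat body means as covariates, leaving out the 2 control arrays apart in gut transcripts, and leaving out each array. Median centring used each array's median over the analysed genes, not over all its probe sets.

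The members and gene lists were chosen with earlier results of these data known. Any member could be named; per comparison up to 6 called members in each direction with the smallest adjusted p could be given full statistics, and up to 10 members the value of every array. Of each list of other translation genes up to 4 called genes with the smallest adjusted p were given values. The 5 genes most correlated with the members' mean were named once.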

Additional observations from a re-analysis of the deposited data

Results flagged for a closer look

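The difference between avl-RNAi and control discs changed from 92 to 116 h in 11 members by the interaction term of the limma fit (adjusted over all genes), and each is listed because its effect differed between the 2 ages. The change was 0.35 for eIF3l, 0.43 for eIF3c, 0.32 for eIF2A, 0.29 for eIF6, 0.25 for eIF3m, 0.25 for eIF2D and 0.22 for eIF3e, so their difference moved up. It was -0.31 for eIF2Bdelta, -0.29 for eIF5B, -0.27 for eIF4E4 and -0.26 for eIF1, so theirs moved down. Adjusted p ran from 0.00109 for eIF3l to 0.0498 for eIF2D. None of the 11 had been called at 92 h. For eIF3c the avl-RNAi values were 11.05, 11.19 and 11.26 at 92 h, below all control arrays of that age, and 11.55, 11.62 and 11.23 at 116 h, of which 2 lay above and 1 below all control arrays of that age. The change of eIF4E4 rested on a probe set near the floor of the arrays.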

How the results depend on the processing

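Counts of called initiation factor genes are given in the order 92 h, 116 h, change of the difference, control ageing, avl-RNAi ageing, 168 against 116 h and 168 h against control 116 h, where they were 0, 15, 11, 6, 20, 17 and 11. With the compared groups alone they were 8, 7, 12 and 8 at 116 h, for the change, for avl-RNAi ageing and for 168 against 116 h. At adjusted p under 0.01 they were 8, 4, 3, 9 and 4 at 116 h, for the change, control ageing, 168 against 116 h and 168 h against control. With tissue covariates they were 2, 5, 0, 5, 0 and 1 from 116 h on; fewer residual degrees of freedom and larger standard errors are part of that fit. At 92 h 2 members were called with the trended and robust prior, 1 with array weights, 3 after median centring, and 1 and 2 without the lowest 25% and 50% of genes. The change of the difference was called for 7 after median centring and 4 without the 2 control arrays apart in gut transcripts. Control ageing gave 10 with the trended prior, 10 after median centring and 11 without the lowest 50%. A replicate block gave 0, 15, 8, 5, 19, 15 and 11.

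Median differences of the members were 0.03, 0.02, -0.02, -0.05, -0.01, -0.01 and -0.02. After median centring they were -0.0737, -0.0653, -0.116, -0.0717 and -0.0966 at 92 h, 116 h, in control ageing, in avl-RNAi ageing and at 168 h against control, and after quantile normalization 0.0398, -0.0231, 0.0136 and 0.0142 at 92 h, in control ageing, in avl-RNAi ageing and at 168 h against control. Without the lowest 50% of genes, where 9 members drop out, they were 0.0035, 0.0638, 0.0549, -0.0729, -0.0595 and 0.00915 in all but avl-RNAi ageing, and with tissue covariates -0.0347, -0.0162 and 0.00128 for the change, control ageing and 168 h against control. From 116 to 168 h it turned to 0.00327 after median centring and 0.00631 with tissue covariates. Of the 7 medians, that of control ageing alone kept its sign in every alternative run.

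Leaving out each array gave counts of 0 to 0, 10 to 16, 6 to 11, 3 to 5, 15 to 21, 11 to 18 and 7 to 10, and medians of 0.0128 to 0.0320, 0.0109 to 0.0294, -0.0347 to 0.0146, -0.0590 to -0.0407, -0.0386 to 0.00226, -0.0311 to -0.00201 and -0.0225 to -0.00278. Of 80 called values of single members, 3 changed direction in any alternative, all from 116 to 168 h with tissue covariates: eIF2Bdelta at -0.00185, eIF3h at 0.0648 and eIF5B at -0.0508. In that fit the median standard error of the members was 0.17, so each of these values lay well within it. The eIF3 counts under each alternative were added after seeing the data. The cause of these shifts was not tested.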
